A study of Mus musculus with 6 samples.

Results

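The comparison described here sets islets of male mice whose mothers received the higher of 2 doses of bisphenol-A against islets of mice whose mothers received vehicle. It uses 4 of the 6 arrays of the series, 2 labelled BPA (100 µg/kg/d) and 2 labelled vehicle, chosen by those labels and not by any measured value. In the treated group, called BPA100, pregnant females received bisphenol-A, a building block of plastics that binds estrogen receptors, at 100 µg/kg/day between gestation days 9 and 16, and the vehicle group received no bisphenol-A over the same days. The islets of Langerhans, small groups of endocrine cells within the pancreas, were taken from their wild-type male offspring at postnatal day 30. All mice were of the OF-1 stock, which is outbred. Vehicle replicate 1 carried pooled RNA of 5 mice, and vehicle replicate 2 and both BPA100 arrays carried RNA of 1 mouse each. Another group of 2 arrays, BPA10, came from offspring of mothers given 10 µg/kg/day, and their signals are printed beside some results. As both doses are compared with the same vehicle arrays, the BPA10 values are no independent evidence. The question behind the series, per its labels, concerns how beta cells, which make insulin, expand in young animals.

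Islets gain beta cells after birth mainly by division of beta cells already present, and the rate of division declines as the animal matures. A dividing cell copies its DNA in S phase, for which genes such as those of the Mcm helicase are switched on by E2F factors, and then expresses a second set of genes for the spindle, the chromosome attachment sites and the final split. The genes of that second set are held down in resting cells by the DREAM complex, which binds elements close to their start sites. Pancreatic islets also carry a circadian clock, respond to glucose and hormones with fast-acting transcription factors, and are isolated together with some acinar, duct, stromal and immune cells.

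Median signals lay between 33 and 40 on the 6 arrays, and correlations of log2 signals between arrays ran from 0.945 to 0.975. The 2 arrays of a group correlated at 0.968 in each group. No label names the litters, so every p-value measures only the spread between arrays. Islet genes were bright on the 4 arrays compared: the summed signal of 16 hormone and peptide genes lay between 84482 and 106868. Acinar genes were bright as well, with a summed signal over 28 genes between 78970 and 206540, lowest on vehicle replicate 2 and highest on BPA100 replicate 1. In whole islets, fewer cells of a type and less RNA per cell cannot be told apart.

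No probe set separated BPA100 from vehicle islets after adjustment: 0 of 27022 (0%) had a limma adjusted p under 0.05, and the smallest adjusted p was 0.2. An unadjusted p under 0.05 was found for 1075 probe sets, 570 higher and 505 lower in BPA100, where 1351 are expected with no difference. Alternative settings passed up to 7 probe sets, and 5 passed without vehicle replicate 1. Counted over 13193 genes, each by its brightest probe set, 2.35% were higher and 1.78% lower in BPA100 at an unadjusted p under 0.05. Both BPA100 arrays lay above both vehicle arrays for 16.3% of genes and below them for 15.3%. These shares are the background against which every gene group is given below. Differences are of log2(signal + 1), a scale that understates the change of dim genes, with the moderated standard error (SE, n = 2 arrays per group).

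An unadjusted p under 0.01 with groups that did not overlap was found for 115 higher and 88 lower probe sets that name a gene, and none passed the adjusted threshold. The largest of these differences follow. Ddit4l, an inhibitor of the growth-promoting mTOR pathway, was measured by 3 probe sets, which were 1.81 to 2.44 higher in BPA100 on the log2 scale. Its brightest probe set measured 81 and 70 in vehicle and 454 and 296 in BPA100 islets, a difference of 2.27 ± 0.26 (SE; limma adjusted p = 0.2). The BPA10 arrays stood between the other groups for this gene, at 146 and 100. Rab3c, a small GTPase of secretory vesicles, was measured by 4 probe sets, which were 0.73 to 1.44 higher. The one with the largest difference measured 129 and 87 against 312 and 269 (1.44 ± 0.23, adjusted p = 0.417), and the groups did not overlap.

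Golt1b, a Golgi transport protein, measured 89 and 36 in vehicle and 581 and 421 in BPA100 islets (3.10 ± 0.37, adjusted p = 0.2). Its other probe set was close to level, with a difference of 0.26, so its 2 probe sets disagree in size. BPA10 arrays measured 274 and 247 on the first probe set. Gdpd3, a phospholipase D-like enzyme of lipid metabolism, had the largest difference among the higher genes, with 42 and 32 against 456 and 437 (3.57 ± 0.76, adjusted p = 0.908). Its BPA10 arrays, at 18 and 150, lay on both sides of the vehicle arrays. Rapgef5, an activator of Rap GTPases, measured 37 and 31 against 111 and 128 (1.79 ± 0.26, adjusted p = 0.367), but its other probe set differed by 0.06.

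Among dimmer genes, 2 potassium leak channel genes were higher in BPA100. Kcnk13 measured 23 and 9 against 67 and 56 (2.01 ± 0.42), and Kcnk3, which encodes the channel TASK-1, measured 35 and 43 against 74 and 70 (0.87 ± 0.27). Adcyap1r1, the receptor of the neuropeptide PACAP that augments insulin secretion, measured 8 and 17 against 49 and 50 (1.99 ± 0.50), and its other probe set was 0.69 higher. No potassium or calcium channel gene besides Kcnk13 and Kcnk3 had an unadjusted p under 0.05 among the 21 tested (background 2.35% higher and 1.78% lower).

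The largest difference in the other direction belonged to H2-Ea, the alpha chain of the class II histocompatibility molecule I-E, which some mouse haplotypes do not express. It measured 246 and 418 in vehicle and 5 and 10 in BPA100 islets (-5.31 ± 1.29, adjusted p = 1), and its other probe set differed by -3.10. One BPA10 array stood with the vehicle arrays at 336 and the other with the BPA100 arrays at 9. H2-Aa and H2-Ab1 encode the other class II molecule. Their brightest probe sets overlapped between the groups, with differences of -0.17 and 0.38 that turned sign without vehicle replicate 2. Further probe sets disagreed for H2-Aa, at -1.23 and 0.81, and lay at 0.53 and above for H2-Ab1. Saa3, an acute phase protein, measured 705 and 26 against 5 and 9 (-4.16 ± 1.21), and Lyz1, a lysozyme of macrophages and Paneth cells, 1798 and 174 against 87 and 54 (-3.01 ± 0.88). The brighter probe set of Lyz1 measured 2003 and 261 against 267 and 138 (-1.91), and its groups overlapped. For both genes vehicle replicate 1, the pool of 5 mice, was far above every other array of the 4. Lyz1 and Lyz2 are near-identical copies, so their signals cannot be fully separated.

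Fam151a and Apof were lower on both BPA100 arrays. Fam151a measured 590 and 633 against 159 and 285 (-1.52 ± 0.25, adjusted p = 0.469), and Apof, an apolipoprotein, 149 and 307 against 60 and 43 (-2.05 ± 0.37, adjusted p = 0.661). Of the 30 largest differences, 13 rest on 1 tested probe set. Of the other 17, 11 had every further probe set of the same sign and 5 had every further probe set at 50% or more of the log2 difference.

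**Figure D1:**
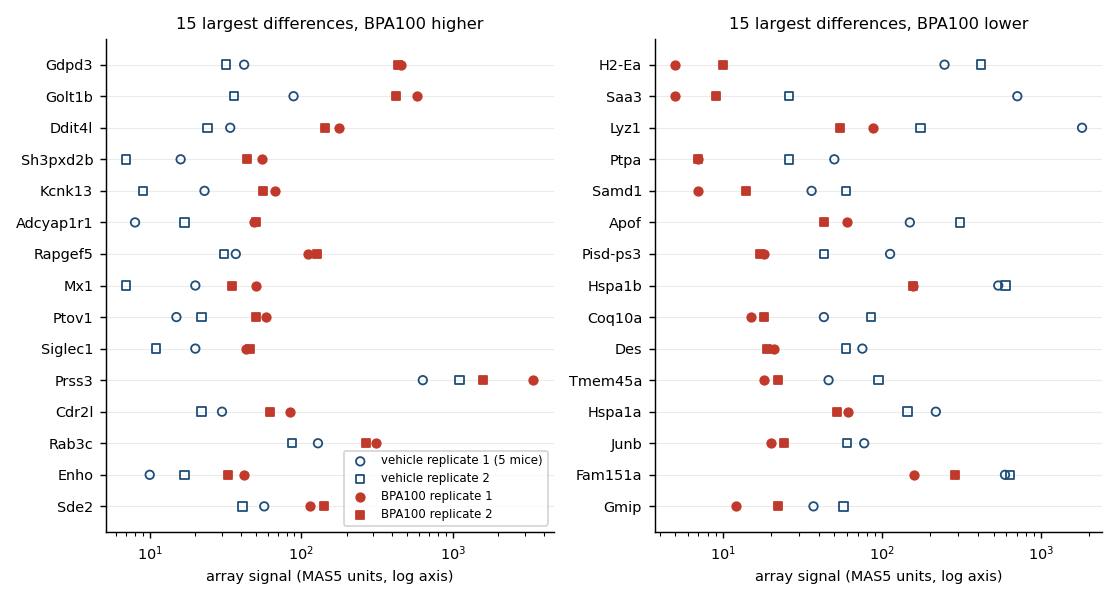
Array signals on a log axis for the 15 largest higher and 15 largest lower differences that had an unadjusted p under 0.01 and groups that did not overlap. Open symbols are the 2 vehicle arrays and filled symbols the 2 BPA100 arrays. Saa3 and Lyz1 show the widest gaps between the 2 vehicle arrays, 705 and 26 for Saa3 and 1798 and 174 for Lyz1.

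Genes that act in mitosis and cytokinesis were higher in BPA100 islets, while genes that act in DNA replication were near level. Over 4 lists joined, 70 of 85 tested cell division genes were higher and 15 lower, with a median difference of 0.34 against -0.0006 over all genes. Relative to the vehicle mean, the median of the 85 stood at 0.26 and 0.42 on the BPA100 arrays. On the BPA10 arrays, of the lower dose, it stood further from vehicle, at 0.60 and 0.53. Both BPA100 arrays were above both vehicle arrays for 47 of the 85 (background 16.3%) and below them for 3 (background 15.3%). An unadjusted p under 0.05 in the higher direction was found for 28 of them (background 2.35%) and in the lower direction for 0 (background 1.78%). The limma test passed none of them after adjustment. Over 42 tested DNA replication and S phase genes the median was 0.01, with 23 higher and 19 lower. The count of 28 was 14 without BPA100 replicate 2 and 16 without vehicle replicate 2.

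The upstream sequences of 6 of these genes are shown because the list was higher as a group and mitotic genes are known to share start-site elements. Cdc20, Ube2c, Cdk1 and Ect2 were chosen for holding both elements searched, Mki67 holds only the first in the bases shown and Ccnb2 only the second. Each line gives the 140 bases before the RefSeq start (GRCm38.p6), 5′ to 3′ on the gene's strand, with capitals for TTTGAA or TTCGAA, the core of the cell cycle homology region (CHR), and for CCAAT, the binding box of the factor NF-Y, on either strand.
Cdc20 upstream bases: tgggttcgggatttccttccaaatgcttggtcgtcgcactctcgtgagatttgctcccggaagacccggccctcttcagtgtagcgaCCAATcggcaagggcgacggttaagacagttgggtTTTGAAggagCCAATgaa
Ube2c upstream bases: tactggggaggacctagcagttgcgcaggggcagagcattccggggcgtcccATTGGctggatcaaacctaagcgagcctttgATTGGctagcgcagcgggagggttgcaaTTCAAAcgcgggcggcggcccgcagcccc
Cdk1 upstream bases: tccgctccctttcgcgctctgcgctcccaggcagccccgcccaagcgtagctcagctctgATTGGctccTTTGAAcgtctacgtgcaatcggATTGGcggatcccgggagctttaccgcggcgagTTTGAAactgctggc
Ect2 upstream bases: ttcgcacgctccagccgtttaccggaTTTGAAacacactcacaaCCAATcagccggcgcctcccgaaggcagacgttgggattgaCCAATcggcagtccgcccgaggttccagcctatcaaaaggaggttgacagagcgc
Mki67 upstream bases: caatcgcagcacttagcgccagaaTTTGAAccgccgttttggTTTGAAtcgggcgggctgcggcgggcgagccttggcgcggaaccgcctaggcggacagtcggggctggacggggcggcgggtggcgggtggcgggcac
Ccnb2 upstream bases: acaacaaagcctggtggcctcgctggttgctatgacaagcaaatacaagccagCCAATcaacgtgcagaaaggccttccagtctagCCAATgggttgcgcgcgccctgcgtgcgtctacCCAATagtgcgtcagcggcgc
The stretch of Cdc20 lies at chr4:118437344-118437483, minus strand, that of Ube2c at chr2:164769789-164769928, plus strand, that of Cdk1 at chr10:69352913-69353052, minus strand and that of Ect2 at chr3:27153879-27154018, minus strand. That of Mki67 lies at chr7:135716380-135716519, minus strand, and that of Ccnb2 at chr9:70421555-70421694, minus strand. In the 250 bases before any listed start, 25 of 70 cell division genes with an entry (35.7%) held a CHR core, against 19.6% of 27025 genes. A CCAAT box was found for 47 of the 70 (67.1%, against 37.5%), and both together for 21 (30%, against 7%). Among 36 S phase genes, 22.2% held a CHR core, 61.1% a CCAAT box and 19.4% both. The letters describe these windows and do not show binding.

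Spindle and mitotic entry genes were 25 of 30 higher, with a median of 0.43. Hmmr, a spindle assembly protein, measured 49 and 45 in vehicle and 121 and 118 in BPA100 islets (1.33 ± 0.19, limma adjusted p = 0.367), and its 3 other probe sets were 0.92 to 1.16 higher. Ckap2, a microtubule stabiliser, measured 57 and 62 against 105 and 130 (0.96 ± 0.22, adjusted p = 0.922). Cenpe, a motor that moves chromosomes to the spindle equator, measured 26 and 4 against 46 and 41 (1.94 ± 0.69), so that its difference leans on the dim vehicle replicate 2. Nek2, a centrosome kinase, was 1.03 higher by its brightest probe set, but its others lay between -0.07 and 0.58, and Cenpf was 0.76 higher by one probe set and -0.37 by the other.

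Mitotic cyclins, kinases and checkpoint genes were 24 of 28 higher, with a median of 0.31. Cdc20, which switches on the anaphase-promoting complex, measured 136 and 97 against 250 and 276 (1.19 ± 0.20), with its other probe set 0.65 higher. Ube2c, the ubiquitin-conjugating enzyme that works with this complex, measured 76 and 59 against 138 and 148 (1.08 ± 0.20). Pttg1 encodes securin, the protein this complex destroys to part sister chromatids. Its signals were 136 and 67 against 201 and 229 (1.16 ± 0.30), with its other probe set 0.53 higher. The kinase gene Cdk1 was 0.62 higher, its partner cyclin gene Ccnb2 0.70, and the checkpoint kinase genes Bub1 and Ttk 0.66 and 0.96. Each of these 7 genes had both BPA100 arrays above both vehicle arrays. Mybl2, a transcription activator of late cell cycle genes, differed by -0.44, with both BPA100 arrays below vehicle.

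Kinetochore genes, which tie chromosomes to the spindle, were less uniform, with 9 of 13 higher and a median of 0.24. That median was 0.09 without vehicle replicate 2 and 0.13 without BPA100 replicate 2. Cenpa, the histone variant that marks centromeres, measured 41 and 43 against 115 and 85 (1.22 ± 0.23, adjusted p = 0.689). Spc25, a subunit of the Ndc80 complex, was bright for a gene of this group and measured 2065 and 1290 against 3637 and 3083 (1.04 ± 0.25), with its other probe set 0.47 higher. Cenpt, also at the inner kinetochore, differed by -0.59.

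Cytokinesis and midbody genes were 13 of 15 higher, with a median of 0.56. Ect2, which activates RhoA to form the cleavage furrow, measured 90 and 73 against 162 and 167 (1.01 ± 0.19, adjusted p = 0.689). Kif23, a motor of the central spindle, measured 20 and 21 against 39 and 51 (1.09 ± 0.32). Cep55, Anln and Prc1, which act at the midbody, the contractile ring and the central spindle, were 0.78, 0.57 and 0.74 higher. Mki67 encodes the proliferation antigen Ki-67, and its signals were 128 and 136 against 213 and 241 (0.78 ± 0.17, adjusted p = 0.921). The median of this list was 0.36 without vehicle replicate 2 and 0.37 without BPA100 replicate 2, below the spindle list in both cases (0.38 and 0.40). The 4 medians stayed above 0 when any of the 4 arrays compared was left out.

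Replication genes with an unadjusted p under 0.05 were about as frequent as among all genes. Orc6, a subunit of the origin recognition complex, measured 279 and 332 in vehicle and 146 and 154 in BPA100 islets (-1.02 ± 0.20, adjusted p = 0.721), and was also lower on the BPA10 arrays, at 163 and 222. E2f2, a transcription factor of S phase entry, measured 43 and 48 against 76 and 74 (0.71 ± 0.24). These were the only 2 of 42 with an unadjusted p under 0.05, 1 in each direction, against background shares of 2.35% higher and 1.78% lower. Of the G1 genes, 16 of 26 were higher with a median of 0.09, which was -0.048 without vehicle replicate 2 (12 higher and 14 lower) and 0.0033 without BPA100 replicate 1. Cdkn2c, an inhibitor of the kinases Cdk4 and Cdk6, was the only one of the 26 with an unadjusted p under 0.05 (background 2.35% higher). It measured 201 and 241 against 288 and 322 (0.47 ± 0.16). The cyclin D genes Ccnd1 and Ccnd2 were 0.28 and 0.19 higher, and Cdk4 differed by -0.14, with every probe set of Ccnd1 and Ccnd2 on the higher side. The kinase inhibitor genes Cdkn1a and Cdkn1b differed by 0.25 and 0.10, with other probe sets of opposite sign and directions that turned when 1 array was left out.

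**Figure D2:**
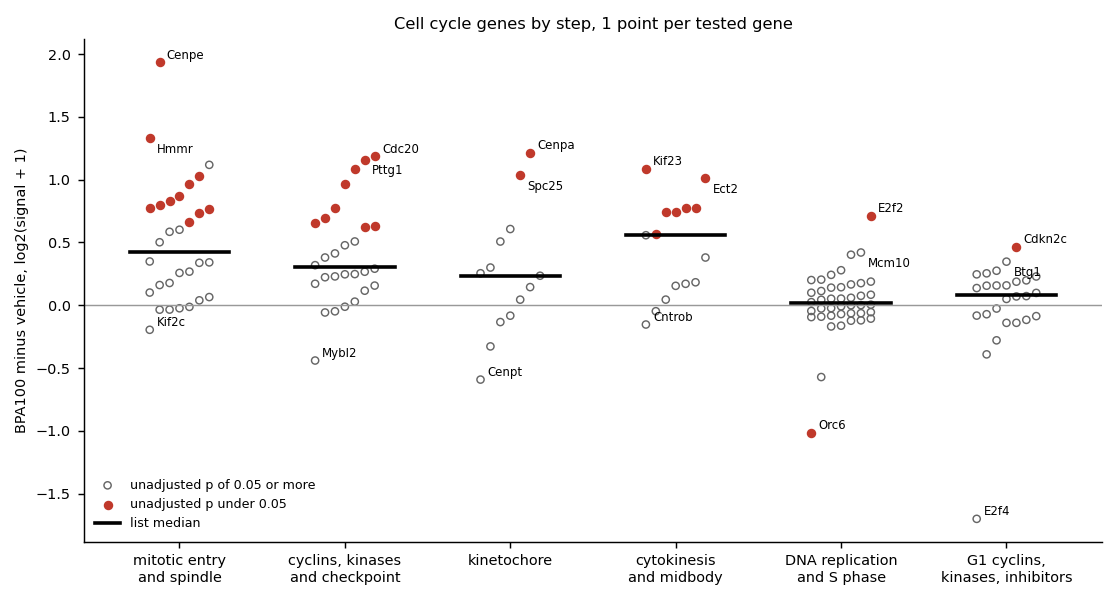
Differences in log2(signal + 1), BPA100 minus vehicle, for the tested genes of 6 cell cycle lists, 1 point per gene, with filled points for an unadjusted p under 0.05 and a bar at the list median. The medians of the 4 division lists lie between 0.24 and 0.56, and those of the S phase and G1 lists at 0.01 and 0.09.

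Genes of the circadian clock differed in both directions. In the clock loop, Arntl (BMAL1) pairs with Clock or Npas2 to switch on Per, Cry, Nr1d and Dbp genes, and the Nr1d proteins in turn hold down Arntl, Nfil3, Cry1 and others. Of 18 tested genes, 10 were higher and 8 lower. An unadjusted p under 0.05 was found for 3 in the higher and 4 in the lower direction, or 7 of 18 genes against background shares of 2.35% and 1.78%. None passed after adjustment.

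Arntl measured 198 and 185 in vehicle and 374 and 282 in BPA100 islets (0.76 ± 0.18, limma adjusted p = 1), with its other probe set 0.29 higher. Nfil3, a repressor of genes that Dbp activates, measured 136 and 119 against 220 and 240 (0.85 ± 0.18, adjusted p = 0.908). The repressor gene Cry1 measured 155 and 101 against 416 and 214 (1.25 ± 0.32). All 3 had both BPA100 arrays above both vehicle arrays, as had Npas2 (0.76 ± 0.40) and Clock (0.25 ± 0.14), although other probe sets of Clock lay between -0.10 and 0.06.

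Other members of the loop were lower in BPA100. Nr1d2 (REV-ERB beta) measured 1257 and 1941 against 661 and 1077 (-0.89 ± 0.26), and its other probe set differed by -0.36. Dbp, the output factor of this loop, measured 677 and 768 against 341 and 489 (-0.82 ± 0.24), with its other probe set at -0.65. Per3, Cry2 and Per1 differed by -0.57, -0.58 and -0.43, with both BPA100 arrays below both vehicle arrays, while Per2 differed by 0.07 and overlapped. The other probe sets of Per3 lay between -1.04 and 0.21.

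The BPA10 means of Arntl, Nfil3 and Cry1 were 0.56, 0.56 and 1.01 above the same vehicle arrays, and those of Nr1d2 and Dbp -0.54 and -0.38. The count of 4 lower genes at an unadjusted p under 0.05 was 1 without vehicle replicate 2, 2 without BPA100 replicate 1 and 2 after median centring. The directions of Arntl, Nfil3, Cry1 and Dbp held in each of 14 alternatives. Of the 15 clock genes with an upstream entry, 3 held the E-box CACGTG in 250 bases (20%, against 6.86% of all genes) and 4 held AGGTCA, the core bound by ROR and REV-ERB receptors (26.7%, against 15.8%). The labels give no time of day for the isolation of the islets.

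**Figure D3:**
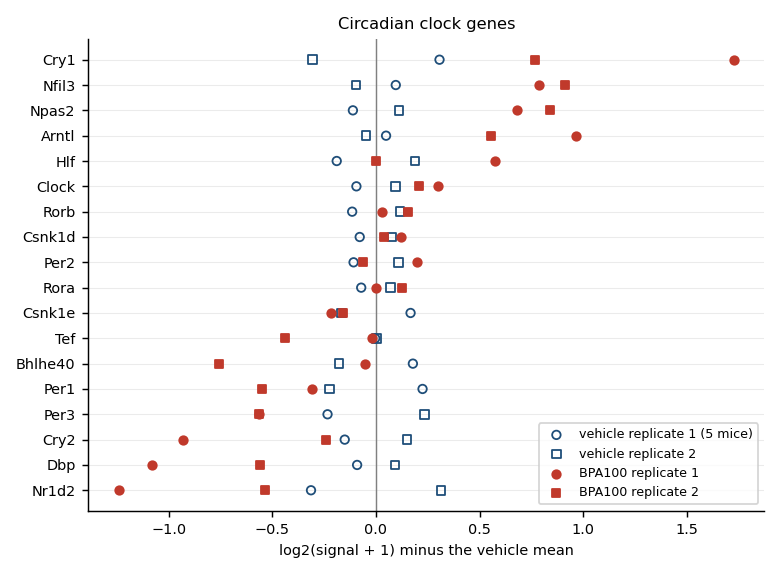
Circadian clock genes on each array as log2(signal + 1) minus the vehicle mean, with open symbols for vehicle and filled symbols for BPA100 arrays. Cry1, Nfil3, Npas2, Arntl and Clock lie to the right on both BPA100 arrays, and Nr1d2, Dbp, Cry2, Per3 and Per1 to the left.

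Several stress-responsive genes had lower signals on both BPA100 arrays, none past the adjusted threshold. The inducible heat shock protein gene Hspa1b was measured by 3 probe sets, and its brightest measured 535 and 595 in vehicle and 157 and 155 in BPA100 islets (-1.85 ± 0.22, limma adjusted p = 0.2). The other 2 differed by -1.84 and -1.52. Hspa1a, its near-identical neighbour, measured 217 and 144 against 61 and 52 (-1.63 ± 0.30), and the 2 copies cannot be fully told apart by hybridization. Dnajb1, the co-chaperone induced with them, measured 514 and 493 against 289 and 334 (-0.69 ± 0.15). On the BPA10 arrays Hspa1b stood between the other groups, at 368 and 233.

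The 250 bases before the starts of Hspa1a and Hspa1b are shown because the paired genes differed together. They were identical at 247 of 250 bases, and capitals mark GAANNTTC, the paired repeat of the heat shock element bound by HSF1.
Hspa1a upstream bases: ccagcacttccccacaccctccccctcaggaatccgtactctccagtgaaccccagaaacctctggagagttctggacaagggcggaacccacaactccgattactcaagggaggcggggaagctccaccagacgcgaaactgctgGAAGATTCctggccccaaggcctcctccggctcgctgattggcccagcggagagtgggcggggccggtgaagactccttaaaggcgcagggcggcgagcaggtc
Hspa1b upstream bases: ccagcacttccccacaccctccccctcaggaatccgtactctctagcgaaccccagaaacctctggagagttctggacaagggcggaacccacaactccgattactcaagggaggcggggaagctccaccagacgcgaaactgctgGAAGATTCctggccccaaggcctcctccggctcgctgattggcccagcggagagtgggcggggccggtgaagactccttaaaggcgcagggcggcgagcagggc
They lie at chr17:34972157-34972406, minus strand, and chr17:34959239-34959488, minus strand (GRCm38.p6, RefSeq). This motif was found upstream of 9 of 21 chaperone genes with an entry (42.9%), against 7.73% of all genes.

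The chaperone list as a whole was not one-sided, with 10 of 25 genes higher, 15 lower and a median of -0.04, which was 0.10 without BPA100 replicate 2 and -0.22 without BPA100 replicate 1. Hspa4l, an Hsp110-type chaperone, measured 369 and 399 against 630 and 486 (0.53 ± 0.18), and Dnaja4, a co-chaperone, 678 and 634 against 1058 and 795 (0.48 ± 0.17). Both were on the higher side with every probe set measured.

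Immediate-early genes, which switch on within minutes of stimulation or tissue handling, were 25 of 30 lower, with a median of -0.37. Both BPA100 arrays lay below both vehicle arrays for 13 of the 30 (background 15.3%) and above them for 0, and 6 were lower at an unadjusted p under 0.05 (background 1.78%). Junb, a subunit of the factor AP-1, measured 77 and 60 against 20 and 24 (-1.59 ± 0.36). Gadd45g, a stress-response gene, measured 708 and 612 against 418 and 367 (-0.75 ± 0.18). Fos, the partner of the Jun proteins, spread widely on the vehicle arrays, at 2349 and 841, and measured 165 and 168 on the BPA100 arrays (-3.07 ± 0.95). Its BPA10 arrays measured 2165 and 183. The list median was -0.23 without vehicle replicate 1, the pool, and stayed below 0 in each alternative run.

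**Figure D4:**
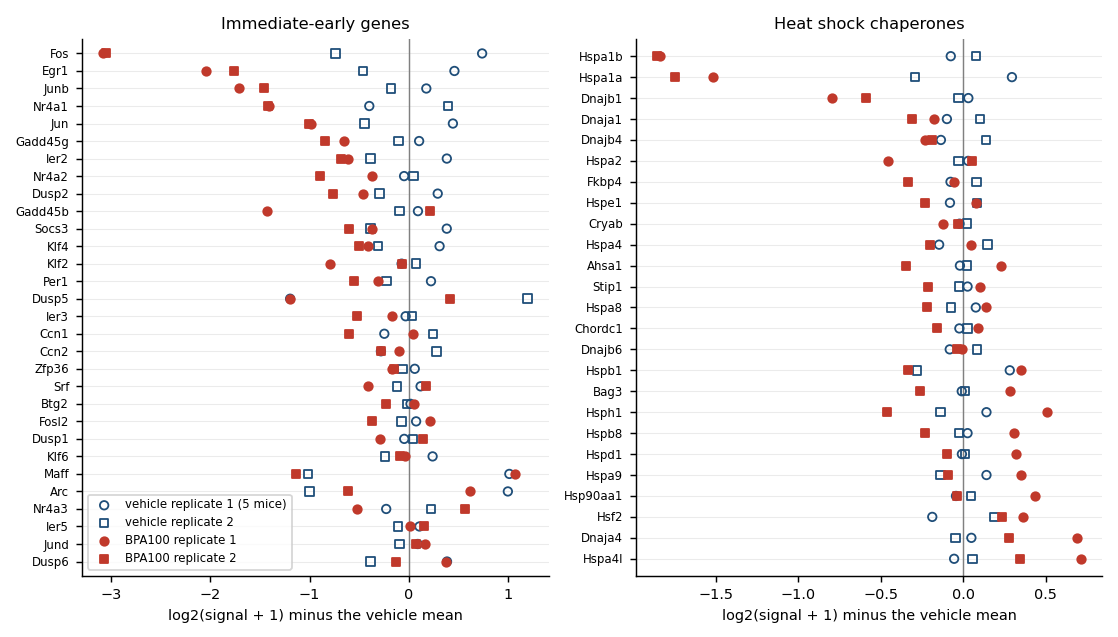
Immediate-early genes and heat shock chaperones on each array, as log2(signal + 1) minus the vehicle mean, with open symbols for vehicle and filled symbols for BPA100 arrays. Fos, Egr1, Junb and Nr4a1 lie far to the left on both BPA100 arrays in the left panel, and Hspa1b, Hspa1a and Dnajb1 in the right panel, where the other chaperones lie on both sides of 0.

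Inflammatory and interferon genes did not move as 1 group. Cebpd, a transcription factor of the acute phase, measured 230 and 218 against 108 and 143 (-0.84 ± 0.19, limma adjusted p = 0.922), and Cp, the copper carrier ceruloplasmin, 361 and 433 against 217 and 166 (-1.05 ± 0.33), with 5 further probe sets between -1.23 and -0.28. The metallothionein gene Mt2, induced by metals and glucocorticoids, measured 1535 and 1304 against 1934 and 2229 (0.55 ± 0.19). The chemokine receptor gene Cxcr4 measured 32 and 32 against 53 and 65 (0.86 ± 0.29). The list of 23 had 6 higher and 17 lower genes and a median of -0.14. With 1 array left out the median ranged from -0.20 without vehicle replicate 2 to -0.061 without vehicle replicate 1, and was -0.078 without BPA100 replicate 2. It was -0.25 with list values averaged over probe sets.

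Interferon response genes were 16 of 29 higher, and both BPA100 arrays were above both vehicle arrays for 12 of the 29 (background 16.3%). At an unadjusted p under 0.05, 5 of the 29 were higher (background 2.35%) and 1 was lower (background 1.78%). Rsad2 (viperin), an antiviral enzyme, measured 93 and 111 against 232 and 219 (1.14 ± 0.27), and its other probe sets were 0.78 and 0.80 higher. Mx1, an antiviral GTPase, measured 20 and 7 against 50 and 35 (1.73 ± 0.51), and Ifit3 and Ifit2, which bind viral RNA, were 1.04 and 0.66 higher. Irf7, the factor that drives interferon genes, went the other way, at 75 and 48 against 23 and 25 (-1.29 ± 0.30, adjusted p = 0.953). The count of 5 higher genes at an unadjusted p under 0.05 was 2 without vehicle replicate 2 and 2 without BPA100 replicate 2. The 140 bases upstream of Rsad2 (chr12:26456453-26456592, minus strand) and Ifit3 (chr19:34583389-34583528, plus strand) are given as examples of the higher members, with capitals for GAAA, any 2 bases and GAAA again, the core of the interferon-stimulated response element, on either strand.
Rsad2 upstream bases: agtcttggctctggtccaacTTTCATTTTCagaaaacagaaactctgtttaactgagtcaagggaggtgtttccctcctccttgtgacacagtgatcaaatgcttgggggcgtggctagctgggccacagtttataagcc
Ifit3 upstream bases: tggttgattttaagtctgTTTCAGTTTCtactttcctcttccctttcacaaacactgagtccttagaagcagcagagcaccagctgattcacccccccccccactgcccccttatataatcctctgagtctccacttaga
That motif was found for 11 of 24 interferon genes with an entry (45.8%), against 3.46% of all genes.

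The main islet hormone genes differed by 0.25 or less, and the peptide genes Gal and Npy were lower on both BPA100 arrays. The insulin gene Ins2 stood at 3546 and 3552 in vehicle and at 4139 and 2680 in BPA100 islets (-0.09 ± 0.19), with BPA100 arrays on both sides of the vehicle arrays, and the difference was 0.22 without BPA100 replicate 2. Gcg, Ppy, Iapp and Sst, the somatostatin gene, measured 7717 to 12296 on these 4 arrays. The highest signal of any probe set on each array was 11218 to 14345, and small differences between signals this bright are uncertain. Sst was 0.25 higher. Gcg, Ppy and Iapp differed by 0.17, 0.16 and 0.20 and by -0.079, -0.077 and -0.012 after quantile normalization. Gal, which encodes galanin, an inhibitor of insulin secretion, measured 101 and 93 against 57 and 29 (-1.23 ± 0.35). Npy, which encodes neuropeptide Y, a peptide of immature beta cells and islet nerves, measured 410 and 567 against 269 and 338 (-0.68 ± 0.20).

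Beta-cell identity genes had 14 of 24 higher and a median of 0.09, which was 0.030 without vehicle replicate 1, 0.17 without vehicle replicate 2 and 0.013 after quantile normalization. G6pc2, the glucose-6-phosphatase of beta cells, measured 7731 and 7080 against 9949 and 8685 (0.33 ± 0.12), and Insm1, a transcription factor of endocrine differentiation, 3008 and 2260 against 3690 and 3116 (0.38 ± 0.16). These were the 2 of the 24 that were higher at an unadjusted p under 0.05 (background 2.35%). After quantile normalization 0 of the 24 were higher at that threshold, as after median centring. Trpm5, a cation channel that shapes glucose-induced activity, measured 727 and 771 against 319 and 657 (-0.71 ± 0.28), and its other probe sets differed by -1.27 and -0.40. Pdx1 and Nkx6-1, master factors of the beta cell, differed by -0.07 and 0.08, and both turned sign when 1 array was left out. The glucose transporter gene Slc2a2 differed by 0.12 and the maturity marker Ucn3 by 0.47 ± 0.26, with overlapping groups for Ucn3. Bcl2 and Bcl2l1, which protect against cell death, differed by 0.33 and -0.31. None of 24 survival and death genes had an unadjusted p under 0.05, against background shares of 2.35% higher and 1.78% lower.

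Genes of growth hormone, prolactin and IGF signalling differed in both directions. At an unadjusted p under 0.05, 2 of 34 insulin and IGF genes were higher (background 2.35%) and 3 were lower (background 1.78%). Of 27 prolactin, growth hormone and growth factor genes, 0 were higher and 1 was lower at that threshold. Cish, a feedback inhibitor switched on by STAT5, measured 321 and 407 against 141 and 252 (-0.94 ± 0.27), and 178 and 206 on the BPA10 arrays. Socs2, another STAT5 target, differed by -0.45 with overlapping groups, and its 3 other probe sets had both BPA100 arrays below both vehicle arrays. Igf1, a growth factor made mainly by non-beta cells of the islet, measured 182 and 144 against 114 and 68 (-0.87 ± 0.32), and the binding protein gene Igfbp3 576 and 519 against 819 and 742 (0.51 ± 0.15). Irs1, the adaptor of the insulin receptor, measured 281 and 252 against 205 and 203 (-0.38 ± 0.16). The medians of the IGF and prolactin lists were -0.03 and -0.04, and both turned above 0 without vehicle replicate 1 (0.013 and 0.074). The prolactin list was also above 0 without BPA100 replicate 1, at 0.14.

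Of estrogen and bisphenol-binding receptors and targets, 14 of 21 were higher and 7 lower, with a median of 0.09. Among the lower ones were the target genes Krt19, Stc2, Pgr, Igfbp4 and Tff1, at -1.11, -0.43, -0.20, -0.18 and -0.12, each with overlapping groups. Greb1, a classic estrogen-induced gene, measured 22 and 8 against 34 and 32 (1.24 ± 0.50), so that its difference leans on the dim vehicle replicate 2. Arnt, the partner of the aryl hydrocarbon receptor, measured 204 and 172 against 225 and 352 (0.58 ± 0.22), with its other probe sets between -0.15 and 0.17. Gper1, the membrane estrogen receptor gene, measured 36 and 41 against 47 and 47 (0.28 ± 0.28). Probe sets of the estrogen receptor genes Esr1 and Esr2 were too dim to be tested, with signals of 21 or less on each of the 4 arrays. Among enzymes of foreign-compound metabolism, Gstt2 was the only one of 31 with an unadjusted p under 0.05 (background 1.78% lower). It measured 170 and 174 against 122 and 114 (-0.54 ± 0.18).

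Lipid synthesis genes were mostly on the higher side by small amounts. Of 31 genes of cholesterol and fatty acid synthesis, 28 were higher, with a median of 0.11. Both BPA100 arrays were above both vehicle arrays for 11 of the 31 (background 16.3%). Cyp51, the sterol demethylase, measured 479 and 412 against 693 and 706 (0.65 ± 0.17), but its other probe sets gave -0.24 and 0.35. Insig1, the sterol-sensing brake of the pathway, measured 839 and 863 against 1095 and 1248 (0.46 ± 0.13). Fasn, which makes fatty acids, differed by -0.26 with both BPA100 arrays below vehicle. The median was 0.05 without BPA100 replicate 1 and 0.20 without BPA100 replicate 2. Of the 31 genes, 20 were higher without vehicle replicate 1 and 21 without BPA100 replicate 1.

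Subunits of 3 large complexes were mostly lower by small amounts. Of 34 proteasome subunits 30 were lower, with a median of -0.13. Both BPA100 arrays were below both vehicle arrays for 17 (background 15.3%) and above for 0 (background 16.3%). Psma7, a core subunit, measured 1367 and 1588 against 1168 and 1185 (-0.32 ± 0.13). Of 66 mitochondrial ribosomal proteins 59 were lower (median -0.10), led by Mrps27 at 78 and 75 against 47 and 37 (-0.86 ± 0.25), and of 53 oxidative phosphorylation subunits 42 were lower (median -0.07), led by Atp5o, a subunit of ATP synthase, at 1642 and 1400 against 1194 and 935 (-0.52 ± 0.16). Subunits of 1 complex are regulated together and count for fewer than their number. The 3 medians were nearest 0 at -0.08 for the proteasome (without vehicle replicate 2), -0.06 for the mitochondrial ribosome (without BPA100 replicate 2 and after median centring) and -0.03 for oxidative phosphorylation (without vehicle replicate 2 and after median centring). Oxidative phosphorylation subunits were 30 lower and 23 higher without vehicle replicate 2, and 29 lower and 24 higher without BPA100 replicate 2. After median centring 34 were lower and 19 higher. The list of cytosolic ribosomal proteins had 18 higher and 16 lower genes, a split that turned with the scaling, to 7 and 27 after quantile normalization and 27 and 7 after median centring.

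Markers of other cell types differed among the arrays in each group. Stellate, fibroblast and smooth muscle markers were 30 of 33 lower, with a median of -0.32, and 15 of 33 had both BPA100 arrays below both vehicle arrays, against a background of 15.3%. The collagen gene Col1a1 measured 178 and 135 against 86 and 70 (-0.99 ± 0.30), the smooth muscle gene Tagln 74 and 121 against 45 and 45 (-1.06 ± 0.27), and Mgp, a matrix inhibitor of calcification, 1266 and 776 against 581 and 554 (-0.80 ± 0.22). Des, the muscle filament desmin, differed by -1.69 on one probe set and by 0.03 on the other. The summed signal of the list was 19830 and 16995 in vehicle and 17106 and 14062 in BPA100 islets, so the groups overlapped. Its median was -0.07 without vehicle replicate 1, -0.49 without vehicle replicate 2, -0.52 without BPA100 replicate 1 and -0.16 without BPA100 replicate 2.

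Acinar markers were 26 of 28 higher with a median of 0.49, but both BPA100 arrays lay above both vehicle arrays for only 3 of the 28 (background 16.3%). Relative to the vehicle mean the list stood at 0.59 and -0.59 on vehicle and at 0.96 and -0.03 on the BPA100 arrays. The median was -0.11 without vehicle replicate 2, -0.03 without BPA100 replicate 1 and 1.10 without vehicle replicate 1. Prss3, a trypsinogen with near-identical relatives, measured 635 and 1106 against 3401 and 1575 (1.46 ± 0.36). Genes of the Reg family, secreted proteins of acinar and stressed islet cells, differed most within the vehicle group: Reg2 measured 7547 and 390 there and 3341 and 2619 on the BPA100 arrays. The part of these cells in the other results was not tested.

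Macrophage markers were 18 of 26 lower with a median of -0.20. The list stood at 0.40 and -0.40 on vehicle and at -0.29 and -0.08 on the BPA100 arrays. The median was 0.23 without vehicle replicate 1, -0.56 without vehicle replicate 2 and -0.08 without BPA100 replicate 1. Lyz2 measured 803 and 142 against 123 and 79 (-1.77 ± 0.67), Cd14 105 and 77 against 58 and 46, and Fcer1g 84 and 60 against 47 and 44. Duct markers were 13 of 18 lower with a median of -0.17, among them the keratin gene Krt7 at 1064 and 1455 against 937 and 895 (-0.44 ± 0.16). The duct median was -0.35 without BPA100 replicate 1 and -0.055 without BPA100 replicate 2. Basement membrane and endothelial markers were 16 of 26 lower with a median of -0.08, which turned to 0.012 without BPA100 replicate 1. Haemoglobin genes were dim on the 4 arrays, with signals of 61 or less for Hba-a2 and Hbb-b2. The part of these cells in the immediate-early, acute phase and interferon results was not tested.

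**Figure D5:**
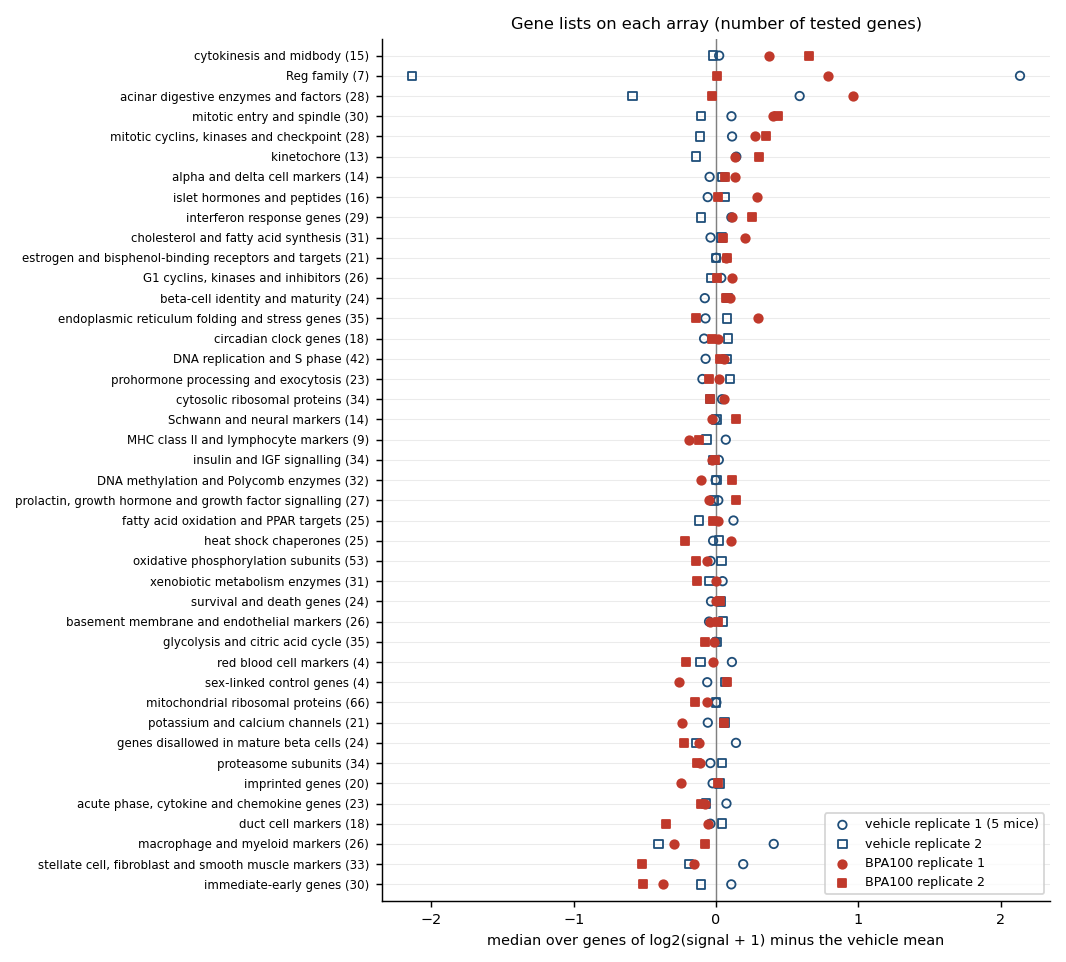
Medians of 42 gene lists on each array, as log2(signal + 1) minus the vehicle mean of each gene, with the number of tested genes in parentheses. The Reg family and acinar lists spread widest between the 2 vehicle arrays, from 2.14 to -2.14 and from 0.59 to -0.59, while the cytokinesis list stands at 0.37 and 0.65 on the BPA100 arrays and at 0.02 and -0.02 on the vehicle arrays.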

How the data were processed

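RNA of pancreatic islets was amplified over a pair of cDNA synthesis cycles and hybridized to Affymetrix arrays, per the labels' protocols. The authors deposited a linear signal intensity for each probe set of an array. MAS5 is named in the submitters' processing notes, and its version is not given in the sources used here. All values are whole numbers, and the mean of each array with 2% trimmed at each end was 150, so the arrays had been scaled to 1 target and a signal is relative to the rest of its array. Detection calls were not used here. Genes were named from GEO's platform annotation, updated through RefSeq (GRCm38.p6, names and upstream sequences only): of 45101 probe sets, 64 controls were left out, 34945 named 1 gene, 932 several and 9160 none. The latter kinds were tested but not named.

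Values were taken as log2(signal + 1) without further normalization. Probe sets with a mean over the 6 arrays at or above the 40th percentile were tested (27022, for 13193 genes). limma 3.58.1 in R 4.3.3 was fitted on 6 arrays with 3 group means and an intensity trend, leaving 3 residual and 5.4 prior degrees of freedom, and the contrast BPA100 minus vehicle was tested 2-sided with Benjamini-Hochberg adjustment at 0.05. The scripts were tested on simulated data. Precision is limited by how few arrays there are: the SE had a median of 0.241, and permuting 2 arrays against 2 cannot give a p below 0.333.

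The members and lists were chosen with earlier results of these data known, so 42 lists (1181 of 1293 entries matched) are given by counts and medians, without a test. A gene stands in a list by its brightest tested probe set. Named genes were the 15 largest differences in each direction with an adjusted p under 0.05 (places left were filled at an unadjusted p under 0.01 with groups that do not overlap), the 4 genes of each list with the smallest p, and a set list of islet and cell cycle genes. Further list members were named after their values were seen. Some list genes were not analysed here. The alternatives were quantile normalization, median centring, a pseudocount of 16, no filter, a 60th percentile filter, no trend, a robust prior, only the 4 arrays compared, the replicate number as a block, only arrays of 1 mouse, list values averaged over probe sets, and leaving out each array.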

Additional observations from a re-analysis of the deposited data

How the results depend on the processing

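The number of probe sets called between BPA100 and vehicle (limma adjusted p under 0.05), 0 as reported, was 6 after median centring, 4 with only the vehicle and BPA100 arrays and 7 with the replicate block, and ranged from 0 to 5 when 1 array was left out. The genes passing after median centring were Golt1b, Ddit4l, Hspa1b and Rapgef5. With only 4 arrays they were Gdpd3, H2-Ea and Hspa1b, and with the replicate block Ddit4l, Golt1b, Hspa1b and Hnrnpab. The number of probe sets with an unadjusted p under 0.05 was 1838 with no filter (995 higher and 843 lower), where more probe sets are tested, and the lower ones numbered 381 to 789 when 1 array was left out. The cause of the other shifts was not tested. The labels state no pairing behind the replicate numbers, and deviations of same-numbered vehicle and BPA100 arrays from their group means correlated at 0.199.

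Of 200 named probe sets 179 kept their direction under the 14 alternatives. Quantile normalization gave -0.041 for Rps29, -0.079 for Gcg, -0.077 for Ppy and -0.012 for Iapp. Kdm5d was 0.0088 after median centring and Hbb-b2 0.11 with only arrays of 1 mouse. When 1 array was left out the direction turned for these genes, given with the lowest and highest difference: Bok -0.11 to 1.16, Doc2b -1.12 to 0.070, Reg1 -0.17 to 1.17, Reg3b -1.05 to 2.82, Reg2 -1.35 to 2.92, Reg3g -2.40 to 4.26, H2-Ab1 -0.11 to 0.87, H2-Aa -0.38 to 0.035, Hba-a2 -0.35 to 0.61, Hbb-b2 -0.20 to 0.11, Kdm5d -0.29 to 0.23, Ins2 -0.41 to 0.22, Pdx1 -0.15 to 0.020, Nkx6-1 -0.055 to 0.21, Cdkn1a -0.090 to 0.60, Cdkn1b -0.0027 to 0.20 and Bcl2 -0.013 to 0.67. Of 645 list medians under alternatives, 35 moved by more than the spread between arrays. With 2 arrays per group 1 array can decide a value, and dim probe sets are the least certain.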

Other observations

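Vehicle replicate 2 lacked signal for several genes that the other 5 arrays expressed. H2-Q2, a class I histocompatibility gene with near-identical relatives, measured 1080 on vehicle replicate 1 and 11 on vehicle replicate 2, against 1604 and 959 on the BPA100 arrays and 973 and 826 on the BPA10 arrays. Lefty1, a secreted inhibitor of Nodal signalling, measured 86 and 2 on the vehicle arrays, 103 and 138 on the BPA100 arrays and 129 and 67 on the BPA10 arrays. Both were picked for this gap after their values were seen, so no test is given.

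Hnrnpab, an RNA-binding protein gene, had probe sets that disagreed. One measured 441 and 388 on the vehicle arrays, 1047 and 802 on the BPA100 arrays and 1002 and 788 on the BPA10 arrays (BPA100 minus vehicle 1.15 ± 0.18, limma adjusted p = 0.417). The brightest, at 3303 and 3036 against 3198 and 3101, differed by -0.01. Rora, a clock-linked nuclear receptor, likewise had a probe set at 42 and 45 against 137 and 78 (1.23 ± 0.30), while its brightest differed by 0.06. Which transcripts these probe sets detect was not tested.

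Among imprinted genes, 13 of 20 were lower with a median of -0.14, which was -0.25 without BPA100 replicate 2 and -0.076 without vehicle replicate 1. It turned to 0.016 without BPA100 replicate 1 (12 higher and 8 lower). Kcnq1ot1, a noncoding RNA of the Kcnq1 cluster, measured 86 and 120 against 52 and 72 (-0.72 ± 0.28), and its other probe sets lay between -0.94 and -0.38. Of the disallowed genes, which are low in mature beta cells, 21 of 24 were lower, with a median of -0.12. Without vehicle replicate 1, 13 were lower and 11 higher (median -0.019), and without BPA100 replicate 2, 15 were lower and 9 higher. The median was -0.29 without vehicle replicate 2 and -0.22 without BPA100 replicate 1.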
